A study of Homo sapiens with 9 samples.

Results

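The 34 genes described here encode the enzymes and the carrier that make, desaturate, elongate, activate and esterify fatty acids. They were picked from the gene table by name, by a rule that uses no measured value, although earlier results of these data were known, and they are 34 of the 58735 genes listed there. All 34 were measured with at least 10 counts in every library, so none was lost to the filter on low counts. RNA was sequenced from VCaP, an established prostate cancer cell line with a TMPRSS2-ERG fusion. The cells received a control siRNA, siCtrl, or one of the siRNAs siCDO1A and siCDO1C, both directed at cysteine dioxygenase CDO1, the enzyme that commits cysteine to taurine and sulfate. Each group had 3 libraries, and the comparisons ask how expression changes when CDO1 is reduced. All groups were grown in serum-containing medium with 2 nM dihydrotestosterone (DHT), so the control cells also had androgen. The labels give siCtrl as WT and both siRNA groups as CDO1 knockdown. A knockdown in 1 cell line leaves residual CDO1 and can carry effects of the siRNA sequence itself, and the sequences of the siRNAs are not given in the sources used here.

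Fatty acid synthesis starts from citrate, which leaves the mitochondrion and is cleaved to acetyl-CoA, carboxylated to malonyl-CoA and built into palmitate by fatty acid synthase. Desaturases and elongases then set the chain, acyl-CoA synthetases activate it, and acyltransferases place it in phospholipids and triglycerides. In prostate cancer the pathway is known for its induction by androgen and by the sterol regulatory element-binding proteins. Polyunsaturated chains in membrane phospholipids, handled by ACSL4 and LPCAT3, are the substrate of lipid peroxidation in ferroptosis, a death that cysteine and glutathione hold in check.

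The libraries held between 12061295 and 16073698 counts. CDO1 itself was reduced by 82.1% ± 4.83 with siCDO1A and by 87.9% ± 6.98 with siCDO1C (SD, n = 3), so the libraries matched their labels as control or knockdown. Its levels overlapped between siCDO1A (2.05 to 3.28 CPM) and siCDO1C (1.09 to 2.81 CPM), so CDO1 cannot tell these 2 labels apart. All 12 prostate luminal and VCaP markers were measured, with a summed level of 6899 to 7051 CPM (counts scaled to library size) in siCtrl, 7711 to 8098 with siCDO1A and 7263 to 7423 with siCDO1C. Of the markers of other cells, 5 of 5 leukocyte, 4 of 6 stromal and 2 of 3 endothelial genes were under 1 CPM in every library. The summed stromal level ran from 17.9 to 22.3 CPM in siCtrl, from 20.2 to 23.1 with siCDO1A and from 14.7 to 18.0 with siCDO1C, and the 5 neuroendocrine genes summed to 239 to 267 CPM across all groups. Replicate 2 of siCDO1C stood apart from the other libraries of its group in some genes, most of all below them in ACACA, 0.56 lower on the log2 scale. Over the 34 genes its median log2 distance from the other libraries of its group, whatever the sign, was 0.119. That of replicate 3 was 0.109 and that of replicate 1 was 0.0804. Where leaving out replicate 2 of siCDO1C changed a call of the 34 genes, both values are given. The labels call the libraries biological replicates but do not say how the cultures were separated, so the p-values measure the spread between these libraries. In RNA from whole cultures, fewer cells with a transcript and less of it per cell cannot be told apart.

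The most abundant transcripts of the pathway came from the central steps. On the scale of CPM per kilobase of gene length, the only one used here between genes, SCD stood at 438 ± 23.4 in siCtrl (SD, n = 3) and FASN at 223 ± 7.77. SCD encodes the stearoyl-CoA desaturase that makes oleate, and FASN the synthase that makes palmitate. The citrate carrier SLC25A1 followed at 72.4 ± 1.65 and the acetyl-CoA carboxylase ACACA at 65.8 ± 2.17, 2 values that lay apart by more than their spread. Next came ELOVL5 at 57.0 ± 1.57 and ELOVL2 at 56.1 ± 2.11, both elongases of polyunsaturated chains, whose levels per length did not differ beyond their spread. The acyl-CoA synthetase ACSL1 (52.5 ± 1.81) and the ATP-citrate lyase ACLY (51.9 ± 0.415) were likewise close. At the other end lay ACACB, the carboxylase tied to the mitochondrial membrane, at 0.483, the dehydratase HACD1 at 0.557 and the second stearoyl-CoA desaturase SCD5 at 1.02 CPM per kilobase.

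**Figure D1:**
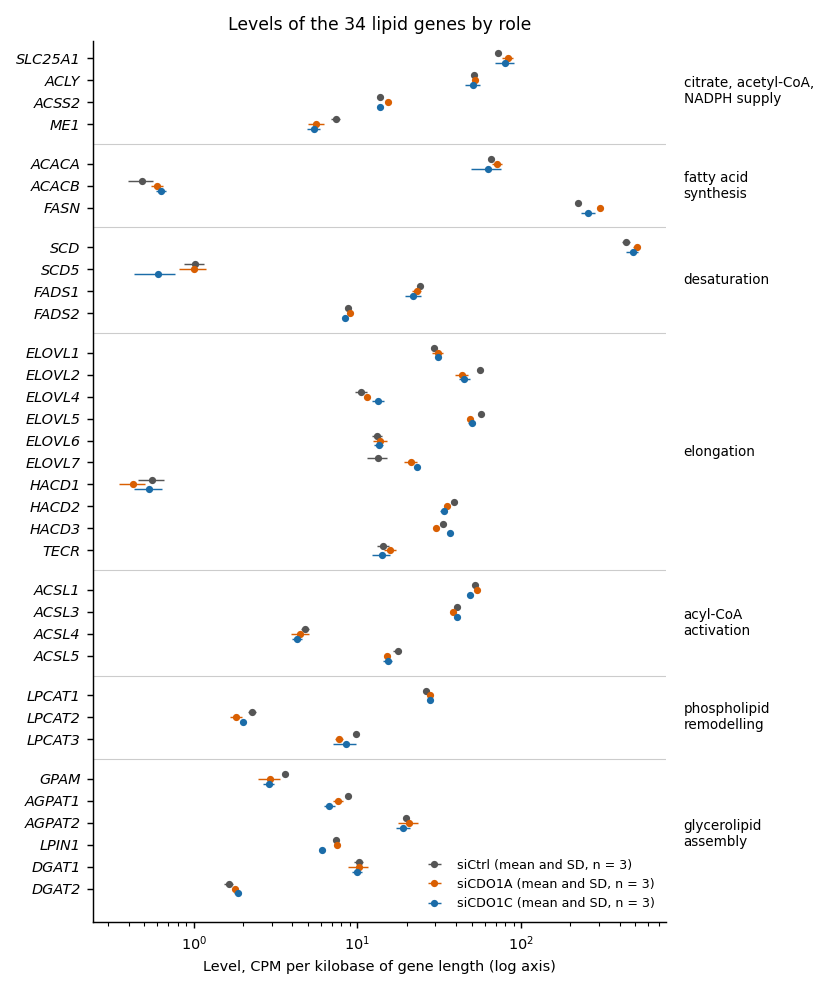
Level of each of the 34 genes in CPM per kilobase of gene length on a log axis, grouped by role. Points are means and bars the SD of 3 libraries, and SCD and FASN lie highest in all 3 groups, with ACACB and HACD1 lowest in siCtrl.

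The 34 genes together took 0.84 to 0.894% of all counts in siCtrl and 0.957 to 0.984% with siCDO1A. With siCDO1C they took 0.932 and 0.959% in replicates 1 and 3 and 0.825% in replicate 2. FASN and SCD alone made up 51.2 to 51.9% of these counts in siCtrl, 56.5 to 57.6% with siCDO1A and 54.0 to 56.1% with siCDO1C. This share did not overlap between siCtrl and either siRNA. In siCDO1C replicate 2, at 54.0%, the levels of FASN and SCD themselves lay inside the siCtrl range. With ACACA added, the share in that library was 61.5%, against 61.1 to 61.9% in siCtrl. These shares are of counts and thus also weigh the lengths of the genes. Spread between replicates was small: the median coefficient of variation of the 34 genes was 4.05% in siCtrl, 6.6% with siCDO1A and 7.35% with siCDO1C, against 7.43, 8.78 and 11.1% over all genes tested.

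With siCDO1A, 10 of the 34 genes (29.4%) passed an adjusted p of 0.05, where 14.8% of the 15555 genes tested did. The 4 that rose were SLC25A1, FASN, SCD and ELOVL7, and the 6 that fell were ME1, ELOVL2, ELOVL5, ACSL5, LPCAT3 and GPAM. Over all genes 7.37% rose and 7.48% fell. With siCDO1C, 5 genes (14.7%) passed against 4.77% of all genes: ELOVL7 rose, and ME1, ELOVL2, AGPAT1 and LPIN1 fell, where 2.27% of all genes rose and 2.5% fell. Among the 13968 genes with at least 10 counts in every library, as the 34 have, the shares over all genes were 16.5 and 5.43%. With siCDO1A 18 of the 34 log2 fold changes were positive and 16 negative, and with siCDO1C 11 were positive and 23 negative, against 7770 and 7785 over all genes. The log2 fold changes of the 34 genes had a median of 0.03 for siCDO1A (mean -0.01, of opposite sign) and of -0.05 for siCDO1C, against 0.01 and -0.00 over all genes. The median size of the change, whatever its sign, was 0.144 and 0.156 on the log2 scale for the 34 genes, and 0.151 and 0.138 over all genes.

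ELOVL7 rose, and ME1 and ELOVL2 fell, with both siRNAs. These 3 are 8.82% of the 34 genes, while 3.62% of all genes passed with both siRNAs in the same direction, 1.9% higher and 1.72% lower. Both comparisons use the same 3 siCtrl libraries, so the count is a description. A further 9 genes passed with 1 siRNA only, which does not show that the siRNAs differ, and 22 passed in no comparison. Replicate numbers coincide with the batch given in the labels. With that number as a block in the edgeR fit, 6 of the 34 (17.6%) passed with siCDO1A, where 8.73% of all genes did, and 4 (11.8%) with siCDO1C, where 4.08% did.

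**Figure D2:**
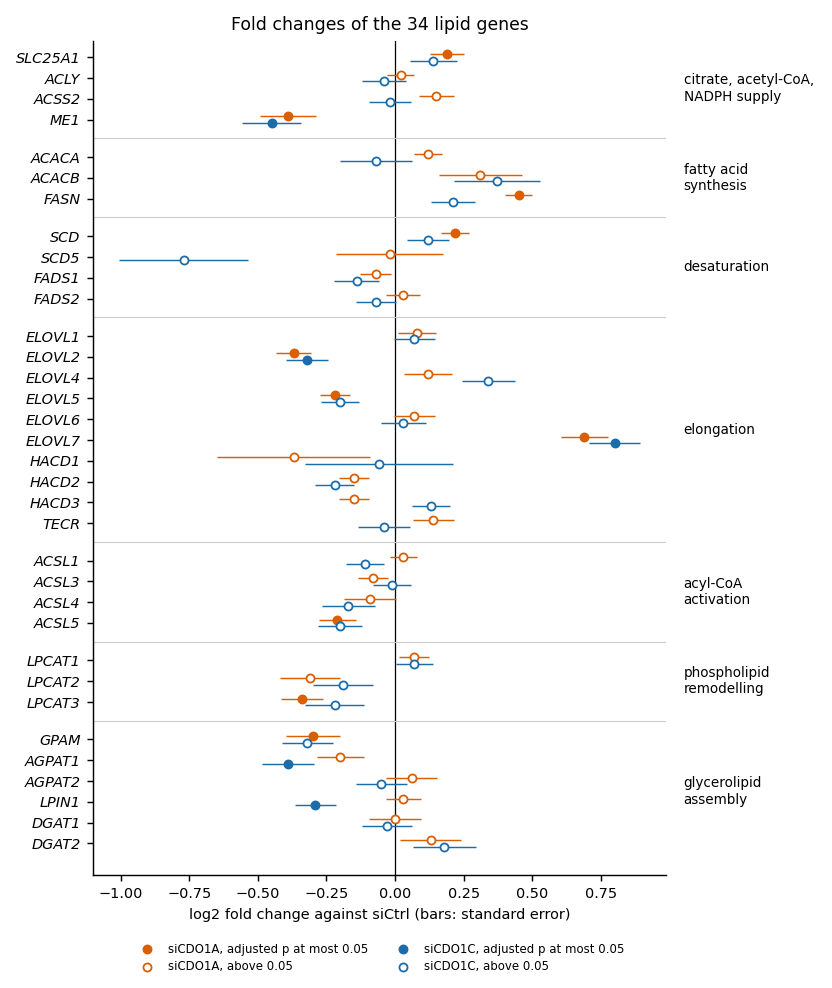
Log2 fold change of each gene against siCtrl with siCDO1A and siCDO1C, with bars for the standard error of the edgeR fit and filled points for an adjusted p of at most 0.05. Filled points lie on both sides of 0, and ELOVL7 lies farthest to the right with both siRNAs (0.69 and 0.80).

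The starts of the genes that passed with both siRNAs, and of SCD and SLC25A1, which rose with siCDO1A, are given so that their sequence can be read beside the values. The stretches are those bases of the RefSeq window before the start (GRCh38.p14) that lie outside the gene as the deposited table places it. The strand is that of the gene, the letters run 5′ to 3′, and capitals mark a match to a CCAAT box on either strand.
ELOVL7 (chr5:60844390-60844519, minus strand): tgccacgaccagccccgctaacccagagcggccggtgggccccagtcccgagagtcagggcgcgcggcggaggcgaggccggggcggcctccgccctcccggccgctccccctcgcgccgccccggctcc
ELOVL2 (chr6:11044315-11044555, minus strand): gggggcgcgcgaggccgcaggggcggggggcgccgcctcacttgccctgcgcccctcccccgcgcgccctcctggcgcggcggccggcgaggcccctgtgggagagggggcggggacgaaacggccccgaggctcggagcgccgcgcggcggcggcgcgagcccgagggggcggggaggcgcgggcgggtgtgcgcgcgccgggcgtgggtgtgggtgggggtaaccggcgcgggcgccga
ME1 (chr6:83431072-83431301, minus strand): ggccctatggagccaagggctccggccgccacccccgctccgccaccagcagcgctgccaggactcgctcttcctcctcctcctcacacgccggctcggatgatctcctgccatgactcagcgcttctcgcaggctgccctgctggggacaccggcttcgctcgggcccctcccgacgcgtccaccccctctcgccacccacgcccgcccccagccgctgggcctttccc
SCD (chr10:100346983-100347123, plus strand): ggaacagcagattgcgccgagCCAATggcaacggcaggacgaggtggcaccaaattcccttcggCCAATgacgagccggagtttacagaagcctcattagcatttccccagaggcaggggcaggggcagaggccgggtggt
SLC25A1 (chr22:19178831-19178986, minus strand): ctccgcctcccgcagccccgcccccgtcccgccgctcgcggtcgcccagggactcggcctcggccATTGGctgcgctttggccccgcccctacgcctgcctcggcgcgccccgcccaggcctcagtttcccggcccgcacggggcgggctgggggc

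The stretches before ELOVL7, ELOVL2 and ME1 held no match to any of the 5 motifs searched, and G and C made up 82.3, 85.5 and 73.0% of their bases. SCD had a CCAAT box starting 229 and another 186 bases before the RefSeq start, and SLC25A1 had the reverse form ATTGG at 185 bases. CCAAT is bound by NF-Y, a known partner of sterol regulatory element-binding proteins. Windows of 250 bases before to 50 after the start were found for 30 of the 34 genes, 50 windows in all. FASN, LPCAT2, DGAT1 and DGAT2 had no window. On both strands CCAAT was in 46.0% of these windows (18 genes) and in 34.6% of all 35116 windows of the same length. Beside SCD and SLC25A1, the 18 genes include ELOVL5, LPCAT3 and GPAM, which fell with siCDO1A, and AGPAT1, which fell with siCDO1C. Others of the 18, such as ACLY, ACSL1 and FADS2, passed with neither siRNA. The sterol regulatory element TCACNCCAC was in 2.0% of the windows of the 34 genes (ACSL1 only) and 1.13% of all. The E-box CACGTG was in 4.0% (ELOVL4 and ELOVL5) and 7.26% of all. The LXR element was in 0.0199% of all windows and the androgen response element in 0.00285%, and in none of the windows of the 34 genes. These are matches of letters and do not mark binding sites.

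Of the 4 genes that supply citrate, acetyl-CoA and NADPH, the malic enzyme ME1 fell with both siRNAs. ME1 makes NADPH in the cytosol, the reductant of fatty acid synthesis. Its gene (ENSG00000065833) lies on chromosome 6 from 83210389 to 83431071 of GRCh38, the build of all gene positions given here. ME1 stood at 26.4, 25.0 and 23.0 CPM in siCtrl replicates 1 to 3, at 19.2, 16.7 and 20.9 with siCDO1A and at 17.6, 20.2 and 17.0 with siCDO1C. Every library of either siRNA lay below every siCtrl library. The log2 fold change was -0.39 with siCDO1A (SE 0.102, adjusted p = 0.0131) and -0.45 with siCDO1C (SE 0.107, adjusted p = 0.0277). The siCDO1A call was lost without siCtrl replicate 1 (adjusted p = 0.0707), siCtrl replicate 2 (0.0538) or siCDO1A replicate 2 (0.0923). The siCDO1C call was lost without siCtrl replicate 1 (0.155), 2 (0.125) or 3 (0.06) and without siCDO1C replicate 1 (0.122) or 3 (0.0817).

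SLC25A1, the mitochondrial carrier that exports citrate, moved the other way with siCDO1A. The gene (ENSG00000100075) lies on chromosome 22 from 19175575 to 19178830. Its levels were 152, 148 and 155 CPM in siCtrl, 176, 187 and 158 with siCDO1A, and 154, 194 and 157 with siCDO1C. With siCDO1A all 3 libraries lay above siCtrl, replicate 3 only just, whereas siCDO1C overlapped siCtrl and only its replicate 2 was high. SLC25A1 rose by 0.19 on the log2 scale with siCDO1A (SE 0.062, adjusted p = 0.0396), and was at 0.14 with siCDO1C (SE 0.0864, adjusted p = 0.418), or 0.03 without siCDO1C replicate 2 (adjusted p = 0.785). The siCDO1A call was lost with the replicate block (adjusted p = 0.141) and without siCtrl replicate 1 (0.121), 2 (0.162) or 3 (0.0546) or siCDO1A replicate 1 (0.126) or 2 (0.234). ACLY, which cleaves citrate to acetyl-CoA, ranged from 268 to 273 CPM in siCtrl and from 274 to 276 with siCDO1A, and ACSS2, which makes acetyl-CoA from acetate, had a log2 fold change of 0.15 (adjusted p = 0.132). Neither passed with either siRNA.

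FASN carried the clearest change of the synthesis steps and rose 1.36-fold with siCDO1A. The gene (ENSG00000169710) lies on chromosome 17 from 82078333 to 82098332. It stood at 2161, 2016 and 2088 CPM in siCtrl, at 2937, 2908 and 2698 with siCDO1A, and at 2568, 2144 and 2549 with siCDO1C. All siCDO1A libraries lay well above siCtrl. Replicates 1 and 3 of siCDO1C lay between the other groups, and replicate 2 lay inside the siCtrl range. The log2 fold change was 0.45 with siCDO1A (SE 0.0483, adjusted p = 2.0e-06) and held in all 6 fits that left out 1 library. With siCDO1C it was 0.21 (SE 0.0801, adjusted p = 0.171), and 0.29 without siCDO1C replicate 2 (adjusted p = 1.3e-05). Beside it the androgen-responsive KLK2 rose by 0.34 with siCDO1A (adjusted p = 5.6e-05) while KLK3 fell by 0.38 on the log2 scale (adjusted p = 0.00741). Their part in the level of FASN was not tested.

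The carboxylases that make malonyl-CoA passed with neither siRNA. ACACA, the cytosolic enzyme, ranged from 825 to 881 CPM in siCtrl and read 879.9, 915 and 999 with siCDO1A. With siCDO1C it read 899 and 929 in replicates 1 and 3 and 621 in replicate 2. Its log2 fold change was 0.12 with siCDO1A (SE 0.0528, adjusted p = 0.13) and -0.07 with siCDO1C (SE 0.13, adjusted p = 0.824). Without siCDO1C replicate 2 the sign turned, to 0.09 (adjusted p = 0.192). ACACB, expressed at 5.96 to 8.37 CPM in siCtrl, was at 0.31 (adjusted p = 0.193) and 0.37 (adjusted p = 0.215).

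**Figure D3:**
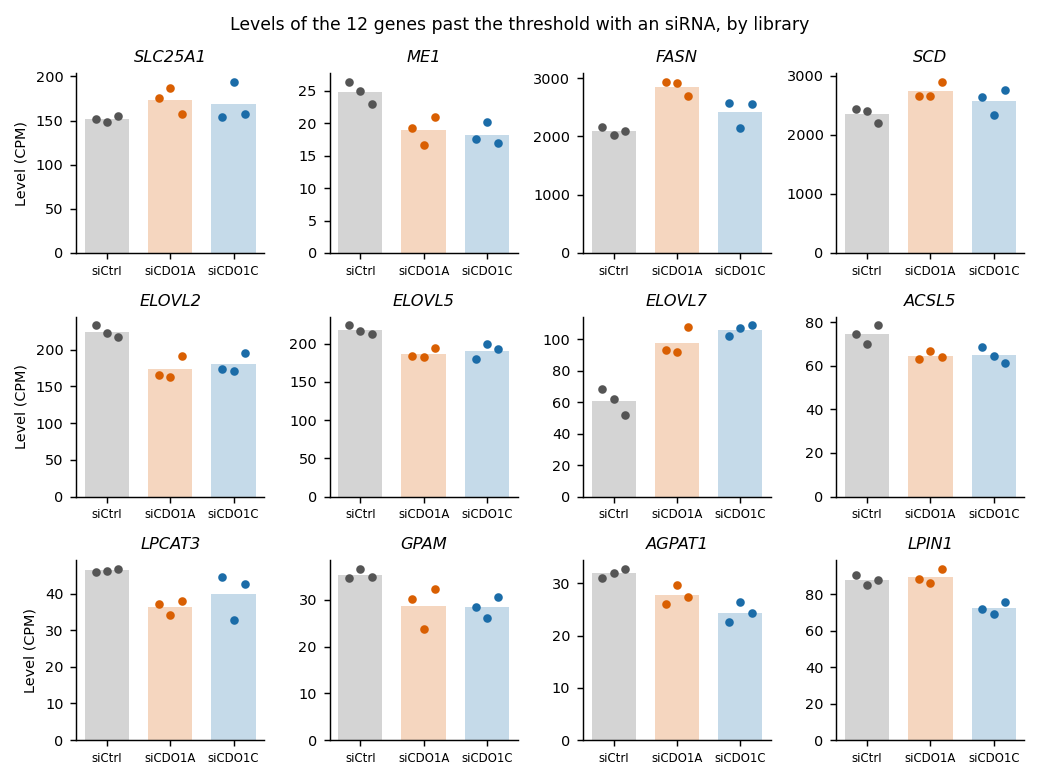
Level in CPM of the 12 genes that passed with at least 1 siRNA, with 1 point per library and bars at the group mean, axes starting at 0. Both siRNA groups lie wholly above siCtrl for ELOVL7 and wholly below it for ME1, ELOVL2, ELOVL5, ACSL5, GPAM, AGPAT1 and LPCAT3. The genes shown were picked by tests of these same libraries, and both siRNA groups are set against the same siCtrl libraries. The separation is thus a description, and its share over all genes was not counted.

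Among the desaturases, SCD rose with siCDO1A and the other 3 did not pass. SCD (ENSG00000099194) lies on chromosome 10 from 100347124 to 100364834. The levels were 2438, 2403 and 2205 CPM in siCtrl, 2658, 2654 and 2896 with siCDO1A, and 2633, 2336 and 2751 with siCDO1C. The siCDO1A libraries all lay above siCtrl, and siCDO1C overlapped it through replicate 2. The rise was 0.22 on the log2 scale (SE 0.0509, adjusted p = 0.00555) and held in all 6 fits without 1 library and with the block, though 1 edgeR fit of all 9 libraries gave an adjusted p of 0.0671. With siCDO1C the value was 0.12 (adjusted p = 0.432), and without replicate 2 it was 0.19 (adjusted p = 0.00362).

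SCD5 was low and uneven. It read 4.12, 5.09 and 3.97 CPM in siCtrl, 4.18, 3.55 and 5.15 with siCDO1A, and 2.12, 3.42 and 2.22 with siCDO1C. All siCDO1C libraries lay below the others, but the log2 fold change of -0.77 against siCtrl (SE 0.235) had an adjusted p of 0.0771. Without the low-count filter it passed (adjusted p = 0.0495), and without siCDO1C replicate 2 it was -1.01 (adjusted p = 0.00605). The front-end desaturases of polyunsaturated chains, FADS1 and FADS2, lay between -0.14 and 0.03 with either siRNA. Their genes overlap on opposite strands and FADS2 also overlaps FEN1, so reads may be shared if strand was not used in counting.

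Elongation held the largest change that passed with all libraries, and changes in opposite directions. ELOVL7, another elongase, rose with both siRNAs. The gene (ENSG00000164181) lies on chromosome 5 from 60751791 to 60844389. It was at 68.2, 62.2 and 52.0 CPM in siCtrl, at 93.3, 91.9 and 108 with siCDO1A and at 102, 107 and 109 with siCDO1C. Every library of either siRNA lay above every siCtrl library. The rise was 1.61-fold with siCDO1A (log2 0.69, SE 0.0863, adjusted p = 1.4e-05) and 1.74-fold with siCDO1C (log2 0.80, SE 0.0938, adjusted p = 2.0e-04). The call held in all 6 fits without 1 library for each siRNA, and also at an adjusted p of 0.01. Per kilobase, ELOVL7 went from 13.3 CPM in siCtrl to 21.3 and 23.2 with siCDO1A and siCDO1C.

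ELOVL2 and ELOVL5, named above as elongases of polyunsaturated chains, went the other way, ELOVL5 past the threshold with siCDO1A only. ELOVL4 did not share this direction, at 0.12 with siCDO1A and 0.34 with siCDO1C, neither past the threshold. ELOVL2 is on chromosome 6 from 10980759 to 11044314 (ENSG00000197977). Its levels were 233, 222 and 217 CPM in siCtrl, 166, 162 and 191 with siCDO1A, and 174, 170.4 and 196 with siCDO1C. All 6 siRNA libraries lay below siCtrl, replicate 3 of each the least. ELOVL2 fell by 0.37 on the log2 scale with siCDO1A (SE 0.0625, adjusted p = 3.4e-04), in all 6 fits without 1 library, and by 0.32 with siCDO1C (SE 0.0761, adjusted p = 0.0247). The siCDO1C call was lost without siCtrl replicate 1 (0.166), 2 (0.125) or 3 (0.0803) or siCDO1C replicate 1 (0.121). The antisense gene ELOVL2-AS1 overlaps it and held only 2 to 27 counts per library.

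ELOVL5, the broader elongase of this class, lies on chromosome 6 from 53267398 to 53349179 (ENSG00000012660). It read 224, 216 and 212 CPM in siCtrl, 184, 182 and 194 with siCDO1A, and 179.8, 199 and 193 with siCDO1C. Both siRNA groups lay below siCtrl. ELOVL5 fell by 0.22 with siCDO1A on the log2 scale (SE 0.0541, adjusted p = 0.00882), but not with the replicate block (adjusted p = 0.063), without siCtrl replicate 1 (0.066) or without siCDO1A replicate 2 (0.0553). With siCDO1C the value was -0.20 (SE 0.0702, adjusted p = 0.129), and -0.23 without siCDO1C replicate 2 (adjusted p = 0.00372).

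The other 7 elongation genes passed with neither siRNA when all libraries were used in the pairwise edgeR fits with the low-count filter. They are the elongases ELOVL1, ELOVL4 and ELOVL6, the dehydratases HACD1 to HACD3 and the reductase TECR, which complete each cycle of elongation. With siCDO1A they lay between -0.37 (HACD1, at 1.31 to 2.57 CPM over siCtrl and siCDO1A libraries) and 0.14 (TECR) on the log2 scale. With siCDO1C they lay between -0.22 (HACD2) and 0.34 (ELOVL4, adjusted p = 0.0584). ELOVL4 passed without the low-count filter (0.0289) and in 1 edgeR fit of all 9 libraries (0.0285). Without siCDO1A replicate 3, HACD2, HACD3 and TECR passed with siCDO1A (adjusted p = 0.0109, 0.0224 and 0.0372), and without siCtrl replicate 3 so did HACD2 (0.0491) and HACD3 (0.0439).

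Among the acyl-CoA synthetases, only ACSL5, an enzyme of mitochondria and endoplasmic reticulum, passed. It lies on chromosome 10 from 112374018 to 112428380 (ENSG00000197142). The levels were 74.4, 70.2 and 78.6 CPM in siCtrl, 63.0, 66.7 and 63.9 with siCDO1A, and 68.7, 64.6 and 61.4 with siCDO1C. Both siRNA groups lay below siCtrl, by a small margin. ACSL5 fell by 0.21 on the log2 scale with siCDO1A (SE 0.068, adjusted p = 0.0454) and was at -0.20 with siCDO1C (SE 0.0808, adjusted p = 0.181). The call was lost with the block (0.152), without siCtrl replicate 1 (0.127), 2 (0.0589) or 3 (0.17) and without siCDO1A replicate 1 (0.152) or 2 (0.0782). ACSL5 also overlaps ZDHHC6 on the other strand.

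ACSL4, which prefers arachidonate and is needed for ferroptosis in many cells, did not pass. It ranged from 29.3 to 32.7 CPM in siCtrl, from 25.7 to 32.7 with siCDO1A and from 25.9 to 29.6 with siCDO1C, with log2 fold changes of -0.09 (adjusted p = 0.566) and -0.17 (adjusted p = 0.377). ACSL1, the synthetase with the highest level per length, read 338, 335 and 317 CPM in siCtrl, 342, 335 and 337 with siCDO1A, and 301, 299 and 321 with siCDO1C. Each siRNA group overlapped siCtrl, while siCDO1C lay below siCDO1A. The values against siCtrl were 0.03 (SE 0.0503, adjusted p = 0.705) and -0.11 (SE 0.0696, adjusted p = 0.426). ACSL3, found on lipid droplets, was at -0.08 and -0.01.

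Of the lysophospholipid acyltransferases, LPCAT3 fell with siCDO1A. LPCAT3 places polyunsaturated chains in phosphatidylcholine and phosphatidylethanolamine, and its gene (ENSG00000111684) lies on chromosome 12 from 6976186 to 7018510. It was steady in siCtrl at 46.0, 46.3 and 46.8 CPM, and stood at 37.3, 34.2 and 38.0 with siCDO1A and at 44.7, 32.7 and 42.7 with siCDO1C. Every siRNA library lay below siCtrl, but among siCDO1C only replicate 2 lay as low as the siCDO1A libraries. The log2 fold change was -0.34 with siCDO1A (SE 0.0771, adjusted p = 0.00437), in all 6 fits without 1 library, and -0.22 with siCDO1C (SE 0.108, adjusted p = 0.298), or -0.09 without siCDO1C replicate 2 (adjusted p = 0.519). EMG1 overlaps LPCAT3 on the other strand.

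LPCAT1, which prefers saturated chains and had the highest level per length of this group, read 167, 169 and 178 CPM in siCtrl, 185, 179 and 177 with siCDO1A, and 179, 182 and 181 with siCDO1C. It was at 0.07 with each siRNA (SE 0.0546 and 0.0678, adjusted p = 0.436 and 0.641). LPCAT2 was low, at 16.0 to 18.0 CPM in siCtrl and 12.3 to 14.3 with siCDO1A, with a log2 fold change of -0.31 (adjusted p = 0.0578) that passed only without siCDO1A replicate 3 (0.0463).

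In glycerolipid assembly, GPAM fell with siCDO1A, and AGPAT1 and LPIN1 fell with siCDO1C. GPAM, the mitochondrial acyltransferase of the first step, lies on chromosome 10 from 112149864 to 112215377 (ENSG00000119927). It stood at 34.6, 36.6 and 34.8 CPM in siCtrl, at 30.2, 23.8 and 32.2 with siCDO1A and at 28.4, 26.1 and 30.6 with siCDO1C. Both siRNA groups lay below siCtrl, most of all siCDO1A replicate 2. GPAM fell by 0.30 on the log2 scale with siCDO1A (SE 0.0988, adjusted p = 0.0455) and was at -0.32 with siCDO1C (SE 0.0928, adjusted p = 0.0583). The siCDO1A call was lost in DESeq2 (0.0509), with the block (0.0869), without any of the siCtrl replicates (0.0912, 0.156 and 0.067 for 1, 2 and 3) and without siCDO1A replicate 1 (0.0682) or 2 (0.265). Without siCDO1C replicate 2 GPAM passed with siCDO1C at -0.27 (adjusted p = 0.0409).

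AGPAT1, which acylates lysophosphatidic acid, fell with siCDO1C. It lies on chromosome 6 from 32168212 to 32178096 (ENSG00000204310). The levels were 31.1, 32.0 and 32.8 CPM in siCtrl, 26.0, 29.8 and 27.5 with siCDO1A, and 22.6, 26.4 and 24.3 with siCDO1C. Both siRNA groups lay below siCtrl. The log2 fold change was -0.39 with siCDO1C (SE 0.0942, adjusted p = 0.0262) and -0.20 with siCDO1A (SE 0.0854, adjusted p = 0.124). The call was lost without siCtrl replicate 1 (0.101), 2 (0.121) or 3 (0.119) and without siCDO1C replicate 1 (0.137) or 3 (0.0638).

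LPIN1, the phosphatase that makes diacylglycerol, fell with siCDO1C and did not pass with siCDO1A. Its gene (ENSG00000134324) is on chromosome 2 from 11677595 to 11827409. It read 90.6, 84.9 and 87.6 CPM in siCtrl, 88.4, 86.3 and 93.8 with siCDO1A, and 71.9, 69.3 and 75.4 with siCDO1C. The siCDO1C libraries lay below all others, while siCDO1A overlapped siCtrl. The log2 fold change was -0.29 with siCDO1C (SE 0.0754, adjusted p = 0.0406) and 0.03 with siCDO1A (SE 0.063, adjusted p = 0.802). The siCDO1C call was lost with the block (0.0785), without siCtrl replicate 1 (0.223), 2 (0.136) or 3 (0.134) and without siCDO1C replicate 1 (0.138) or 3 (0.0579).

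AGPAT2, the acyltransferase with the highest level per length among these genes, read 36.0, 35.7 and 34.8 CPM in siCtrl, 41.3, 38.3 and 31.4 with siCDO1A, and 33.2, 38.1 and 31.7 with siCDO1C. The groups overlapped, at 0.06 (SE 0.0929, adjusted p = 0.748) and -0.05 (SE 0.0926, adjusted p = 0.821). DGAT1 and DGAT2, which complete triglycerides, lay between -0.03 and 0.18 with either siRNA and did not pass.

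The number of genes that passed with siCDO1C moved most with replicate 2. Without that library, 12 of the 34 genes (35.3%) passed with siCDO1C, 4 higher and 8 lower, where 13.3% of all genes did. All 5 genes that passed with every library were among them. The other 7 were FASN, SCD and ELOVL4, which rose, and SCD5, ELOVL5, HACD2 and GPAM, which fell. ELOVL4, an elongase of very long chains, read 34.8, 32.4 and 29.3 CPM in siCtrl and 39.1, 44.5 and 38.9 with siCDO1C, and was at 0.28 without replicate 2 (adjusted p = 0.0341). HACD2 read 214, 215 and 199 CPM in siCtrl and 170.2, 187 and 185 with siCDO1C. It was at -0.22 with all libraries (adjusted p = 0.0991) and at -0.24 without replicate 2 (adjusted p = 0.00312). This library was singled out after its values were seen.

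**Figure D4:**
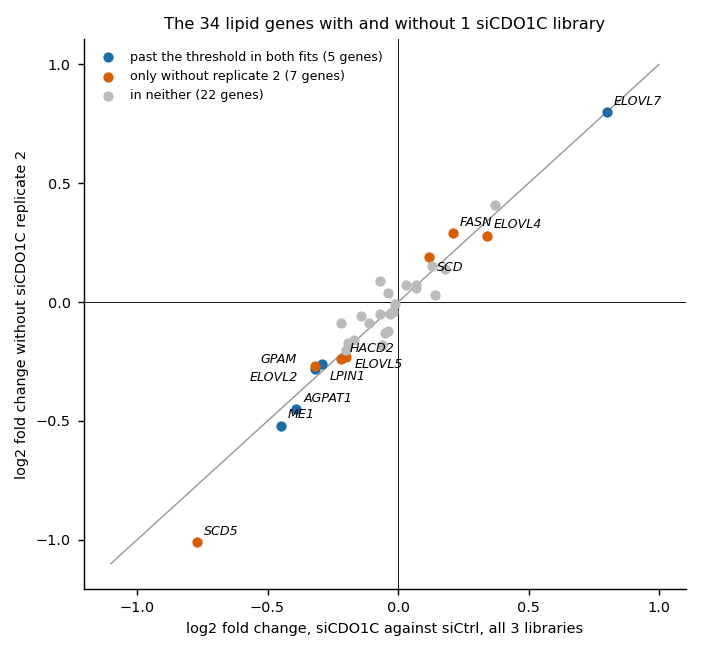
Log2 fold change of the 34 genes with siCDO1C against siCtrl, with all 3 siCDO1C libraries on the horizontal axis and without replicate 2 on the vertical axis, with the line of equal values. Of the 34 genes 5 passed in both fits, 7 only without replicate 2, and 22 in neither.

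In the pairwise edgeR fit that compared the siRNAs directly, none of the 34 genes passed, while 0.444% of all genes did. At an unadjusted p under 0.05 there were 5 of the 34, and the smallest adjusted p was 0.161. DESeq2 gave 1 gene (HACD3), and 1 edgeR fit of all 9 libraries gave 2 (HACD3 and LPIN1). Over all genes these settings gave 0.669 and 0.823%. HACD3, a dehydratase of the elongation cycle, read 241, 247 and 228 CPM in siCtrl, 218, 211 and 217 with siCDO1A, and 262, 258 and 268 with siCDO1C. Its siCDO1A libraries all lay below siCtrl and its siCDO1C libraries all above. The log2 difference between siCDO1C and siCDO1A was 0.28 (SE 0.0759, adjusted p = 0.168). For LPIN1 it was -0.32 (SE 0.0834, adjusted p = 0.161), for FASN -0.24 (SE 0.0861, adjusted p = 0.426) and for SCD5 -0.74 (SE 0.245, adjusted p = 0.337). Without siCDO1C replicate 2, HACD3 (0.30, adjusted p = 0.00871), LPIN1 (-0.29, 0.0412) and SCD5 (-0.99, 0.0394) passed, where 2.87% of all genes did.

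The regulators that act on these genes were read from the same fits. Of 17 lipogenic regulators measured, 2 rose and 4 fell with siCDO1A (35.3%), and 1 rose and 1 fell with siCDO1C (11.8%), where 14.8 and 4.77% of all genes passed. Without siCDO1C replicate 2, 4 passed with siCDO1C, where 13.3% of all genes did. SREBF1, the transcription factor gene that drives FASN and SCD, read 206, 206 and 226 CPM in siCtrl, 309, 309 and 277 with siCDO1A, and 266, 271 and 254 with siCDO1C. Both siRNA groups lay above siCtrl, and SREBF1 rose by 0.49 on the log2 scale (SE 0.0586, adjusted p = 8.3e-06) and by 0.30 (SE 0.0705, adjusted p = 0.0228). INSIG1, which retains the precursor of that factor in the endoplasmic reticulum and is itself a target of it, read 452, 443 and 432 CPM in siCtrl, 319.9, 309 and 286 with siCDO1A, and 311, 378 and 345 with siCDO1C. INSIG1 thus lay below siCtrl in all 6 libraries, with log2 fold changes of -0.54 (SE 0.0532, adjusted p = 6.3e-07) and -0.37 (SE 0.0772, adjusted p = 0.0123). Each siCDO1C call was lost without any of the siCtrl replicates (0.148, 0.166 and 0.0539 for SREBF1 and 0.106, 0.0875 and 0.0632 for INSIG1, replicates 1 to 3) and without siCDO1C replicate 1 (0.085 and 0.0923).

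MBTPS2, a protease that releases the factor from the Golgi membrane, read 75.1, 68.8 and 66.8 CPM in siCtrl, 48.8, 51.6 and 56.1 with siCDO1A, and 77.0, 71.0 and 71.1 with siCDO1C. It fell with siCDO1A by 0.43 on the log2 scale (adjusted p = 5.4e-04), and siCDO1C overlapped siCtrl. The other regulators that passed with siCDO1A, named after their values were seen, were INSIG2 (-0.60), MLXIPL (0.68) and PRKAA1 (-0.20), which encode a paralogue of INSIG1, a glucose-responsive factor and a subunit of the AMP-activated kinase. MLXIPL was lost with the replicate block (0.0504), in DESeq2 (0.0626) and without siCtrl replicate 1 (0.11) or 3 (0.0845) or siCDO1A replicate 1 (0.0505) or 2 (0.119). PRKAA1, whose siCDO1A libraries overlapped siCtrl, was lost with the block (0.134), in 1 edgeR fit of all 9 libraries (0.12) and without siCtrl replicate 1 (0.229) or 2 (0.159) or siCDO1A replicate 1 (0.207) or 2 (0.206).

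Other enzymes of synthesis and acyl transfer gave 3 higher and 1 lower of 30 measured with siCDO1A, and 2 higher and 2 lower with siCDO1C, 13.3% each, against 14.8 and 4.77% of all genes. With siCDO1A the share was thus near that over all genes, and FADS3 (0.069) and SCP2 (0.0626) were lost with the replicate block. CBR4, a subunit of the reductase of mitochondrial fatty acid synthesis, read 224, 225 and 208 CPM in siCtrl, 296, 279 and 308 with siCDO1A, and 266, 317 and 283 with siCDO1C. With siCDO1A it rose by 0.43 on the log2 scale (adjusted p = 2.1e-05). Its rise of 0.39 with siCDO1C (adjusted p = 0.00829) was lost without siCtrl replicate 1 (0.0513), 2 (0.0551) or 3 (0.0803). LPCAT4, a lysophospholipid acyltransferase outside the 34 genes, read 13.1, 12.8 and 12.9 CPM in siCtrl, 18.5, 19.5 and 19.2 with siCDO1A, and 20.1, 16.3 and 19.1 with siCDO1C. LPCAT4 rose by 0.56 with siCDO1A (adjusted p = 8.0e-04). Its rise of 0.51 with siCDO1C (adjusted p = 0.0217) was lost without siCtrl replicate 1 (0.084), 2 (0.109) or 3 (0.103) or siCDO1C replicate 1 (0.106) or 3 (0.0582). AGPAT5, of the same acyltransferase family as AGPAT1, read 84.7, 76.8 and 75.7 CPM in siCtrl, 79.2, 74.7 and 86.5 with siCDO1A, and 51.7, 57.0 and 53.0 with siCDO1C. Its siCDO1C libraries lay far below all others, and it fell by 0.56 on the log2 scale (adjusted p = 9.2e-04).

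Head group synthesis of phospholipids gave 3 higher and 1 lower of 17 with siCDO1A (23.5%) and 1 higher with siCDO1C (5.88%). Beside this and the following lists, 14.8% of all genes passed with siCDO1A and 4.77% with siCDO1C. The 5.88% was thus near the share over all genes. SELENOI, which makes phosphatidylethanolamine, read 190.0, 187 and 164 CPM in siCtrl, 214, 213 and 244 with siCDO1A, and 242, 223 and 248 with siCDO1C. Both siRNA groups lay above siCtrl. SELENOI rose by 0.31 on the log2 scale with siCDO1A (adjusted p = 0.00268). Its rise of 0.39 with siCDO1C (adjusted p = 0.00956) was lost without siCtrl replicate 2 (0.0532) or 3 (0.0845). Of the 4 calls with siCDO1A, PTDSS1 was lost with the replicate block (0.122). Fatty acid oxidation gave 4 higher and 2 lower of 25 with siCDO1A (24.0%). With the replicate block it gave 0 of 25, where 8.73% of all genes passed. Adjusted p of the lost calls there ran from 0.0763 (ACADS) to 0.15 (ECHS1). In 1 edgeR fit of all 9 libraries it gave 0, where 8.8% of all genes passed. DESeq2 called 4, and 12.8% of all genes. With siCDO1C edgeR and DESeq2 called 0 of the oxidation genes, with 4 at an unadjusted p under 0.05 in edgeR. Without siCDO1C replicate 2 edgeR called 2, where 13.3% of all genes passed. Lipid droplet and lipolysis genes gave 1 lower of 13 with siCDO1A (7.69%), the lipase MGLL (-0.49, adjusted p = 7.0e-06), and 0 with siCDO1C, with 1 at an unadjusted p under 0.05. MGLL was called there in DESeq2 (adjusted p = 0.0454), without the low-count filter (0.017), in 1 edgeR fit of all 9 libraries (0.0289) and without siCDO1C replicate 2 (-0.21, 0.0128). Fatty acid uptake and binding gave 0 of 11 with siCDO1A in edgeR and DESeq2, with 2 at an unadjusted p under 0.05 in edgeR, and 1 higher with siCDO1C, the lipoprotein lipase LPL (0.53, adjusted p = 0.0122). The LPL call was lost without siCtrl replicate 2 (0.0881) or 3 (0.0803) or siCDO1C replicate 3 (0.0505). MGLL and LPL are named after their values were seen.

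**Figure D5:**
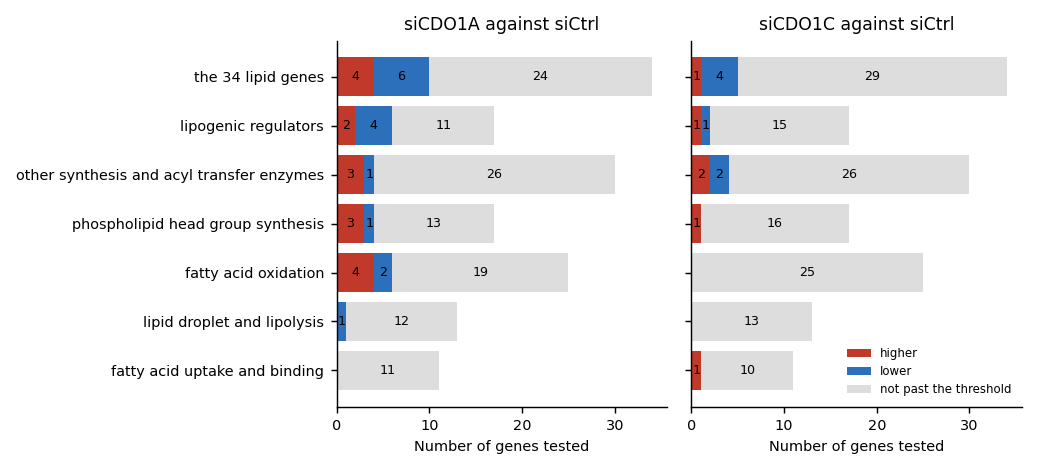
Number of genes higher, lower and not past an adjusted p of 0.05 among the 34 genes and in 6 other lipid gene lists, for siCDO1A and siCDO1C against siCtrl. The 34 genes have 4 higher and 6 lower with siCDO1A, and 1 higher and 4 lower with siCDO1C.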

How the data were processed

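Poly(A) RNA of the 9 libraries was made into directional libraries, and per the labels reads were processed with CASAVA and HISAT2 2.0.5 on hg38. The authors counted reads per gene with featureCounts and deposited whole-number counts without normalization. How multimapping reads and strand were treated is not given in the sources used here, and 7 of the 34 genes overlap another gene of at least 1 CPM. A further 3 columns of the table belong to none of the samples and were not used. Samples were grouped by their titles.

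Counts were used as deposited. Genes were kept by filterByExpr (minimum count 10, 15555 of 58735) and tested with edgeR 4.0.16 (limma 3.58.1, R 4.3.3): TMM scaling, robust quasi-likelihood fits of the 6 libraries of each comparison, and Benjamini-Hochberg adjustment over all genes, with a threshold of 0.05. Levels are TMM-scaled CPM over 9 libraries. The SE is the size of the log2 fold change divided by the square root of F. A count of 3 corresponds to 0.187 to 0.249 CPM in the libraries. The fit was tested on simulated data.

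The alternatives were RLE scaling, no low-count filter, at least 10 counts in every library, DESeq2 1.42.0, 1 fit of all 9 libraries, the replicate number as a block, each library left out, and an adjusted p of 0.01. Replicate numbers equal the batch given in the labels, which is why the block was run. Over 11332 genes, deviations of same-numbered libraries from their group means correlated from -0.376 to 0.378. The 34 genes and all lists were chosen with earlier results of these data known. Genes given in full are the up to 12 that passed with the smallest adjusted p and the highest per length of each role. From other lists, genes that passed with both siRNAs or in the direct comparison were named. Sequences are from RefSeq (GRCh38.p14).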

Additional observations from a re-analysis of the deposited data

Results flagged for a closer look

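Outside the 34 genes, 2 related genes differed between the siRNAs in the direct edgeR test. AGPAT5 was lower with siCDO1C than with siCDO1A, with a log2 difference of -0.58 (SE 0.0896, adjusted p = 0.0042), and was at 0.02 with siCDO1A and -0.56 with siCDO1C against siCtrl. The difference was lost without siCDO1A replicate 3 (adjusted p = 0.064) or siCDO1C replicate 1 (0.0527). MBTPS2 was higher with siCDO1C than with siCDO1A by 0.48 (SE 0.0895, adjusted p = 0.018), and was at -0.43 with siCDO1A and 0.05 with siCDO1C against siCtrl. This was lost without siCDO1A replicate 1 (0.247) or 2 (0.183) or siCDO1C replicate 1 (0.176).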

How the results depend on the processing

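With siCDO1A the 10 genes that passed became 6 at an adjusted p of 0.01, 6 in 1 edgeR fit of all 9 libraries and 6 with the replicate block, and 5 to 14 when 1 library was left out (fewest without siCtrl replicate 1 or siCDO1A replicate 2, most without siCDO1A replicate 3). With siCDO1C the 5 became 7 without the low-count filter (ELOVL4 and SCD5 gained), 6 in 1 fit of all 9 libraries (ELOVL4 gained), 4 with the block, 1 at 0.01 and 1 to 12 with 1 library left out. The direct comparison gave 1 in DESeq2, 2 in 1 fit of all 9 libraries and 0 to 3 with 1 library left out. The 3 genes that passed with both siRNAs became 1 at 0.01 and 1 to 7 with 1 library left out. CDO1 itself passed throughout. Over all genes, the 2309 calls with siCDO1A became 1107 at 0.01, 1369 in 1 fit of all libraries and 1358 with the block, and the 742 with siCDO1C became 282 at 0.01. When 1 library was left out, 8.31 to 22.2% of all genes passed with siCDO1A and 1.69 to 13.3% with siCDO1C. In the direct comparison it was 0.116 to 2.87%. Without the low-count filter 3.44% of all genes passed with siCDO1C. The number of calls thus also moved over all genes. Of 1323 fold changes of the 34 genes under an alternative, 58 lost a call, 22 gained one and 0 reversed sign with a call. The block removed the calls of SLC25A1, ELOVL5, ACSL5 and GPAM with siCDO1A and of LPIN1 with siCDO1C, and changed no other call among the 34. SLC25A1, SCD, ACSL5 and GPAM were also lost in 1 fit of all 9 libraries, ACSL5 without the low-count filter and GPAM in DESeq2. The causes of these shifts were not tested. With 3 libraries per group the small changes of low genes such as SCD5 and HACD1 are measured with a wide error.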
